A study of Caenorhabditis elegans with 3 samples.

Results

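The genes described here encode parts of the transcription machinery. Their products include subunits of RNA polymerases I, II and III, the TATA-binding protein (TBP) and its relative, and the TBP-associated factors (TAFs). The general factors of RNA polymerase II, the SNAP complex (SNAPc) and Mediator are also covered. The genes were taken as the protein-coding genes of Caenorhabditis elegans whose names begin with taf-, rpb-, rpc-, rpoa-, gtf-, mdt- or snpc- and a number. To these were added tbp-1, tlf-1, ttb-1, ama-1 and drap-1. The rule gave 78 of the 19973 protein-coding genes on the 6 nuclear chromosomes. Mediator has 20 of them, the TAFs 17, RNA polymerase II 12 and its general factors 11. SNAPc has 7, RNA polymerases I and III 4 each, the TBP family 2 and negative cofactor 2 (NC2) 1. No gene of TFIIIC, which recruits RNA polymerase III to tRNA genes, is named in this way.

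DRAP-1 was mapped by chromatin immunoprecipitation and sequencing (ChIP-seq) in whole worm embryos. All 3 samples, which the labels number as biological replicates 2, 3 and 4, belong to 1 group, so no treatment or genotype was compared. They came from strain OP700, which carries the transgene wgIs700, a drap-1 fusion to TY1, EGFP and 3xFLAG with an unc-119(+) marker, in an unc-119 (tm4063) background. The embryos were of mixed stage and mixed sex, were collected by egg bleaching, and have an age of 3 hours in the labels. The tagged protein is therefore expressed from an inserted transgene. The labels as used here do not say whether the untagged drap-1 locus is intact, and the lists were made from whole embryos, so cell types cannot be told apart.

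TBP bends the DNA of a promoter and is the seat on which TFIIA and TFIIB assemble before RNA polymerase II arrives. NC2 is a pair of histone-fold proteins, Dr1 and DRAP1, that clamps TBP on DNA and keeps TFIIA and TFIIB away, and the ATPase Mot1 (BTAF1) takes TBP off DNA. TFIID carries TBP with the TAFs to promoters, Mediator passes signals from activators to the polymerase, and SNAPc brings small nuclear RNA genes under the control of both RNA polymerase II and RNA polymerase III. The data show where DRAP-1 lay along these genes, not how strongly the genes were transcribed.

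Each replicate has a list of 30000 regions, candidates that include background, and a list of 30000 regions comes from the pooled reads. A final list of 1468 peaks was kept by the authors' irreproducible discovery rate (IDR) step, a filter on whether a region's rank recurs from replicate to replicate. Every region has a summit and a signal value of unstated scale, and regions were ranked by signal within their own list, rank 1 being the highest. A gene was counted as having a candidate when a pooled summit lay within 500 bp of its 5′ end, and as called when an IDR summit did. A replicate rank given for a gene is that of the highest summit within 500 bp in that replicate, which need not be the pooled summit. A summit was taken to recur where a replicate summit lay within 100 bp of it. The 1468 IDR peaks are exactly the 1468 highest regions of the pooled list, and the lowest of them has a signal of 126.7. The lists give no read counts, so depth could not be read from them. No test was made across genes, and each count is set beside the same count over all protein-coding genes.

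DRAP-1 was called at 6 of the 78 genes (7.69%), against 748 of all 19973 coding genes (3.75%). The 6 genes are mdt-9, mdt-26 and mdt-22 of Mediator, taf-4 of TFIID, rpoa-12 of RNA polymerase I and rpb-11 of RNA polymerase II. The DNA around the summits is printed for 5 of these genes, because these are the stretches on which the finding rests. Each run is on the gene's strand, 5′ to 3′, within 50 bp of the summit, moved upstream where needed so that it ends before the annotated 5′ end. The sequence is that of the RefSeq WBcel235 genome. Capitals mark a match to 1 of 5 words sought on both strands. These were the TATA box TATAAA, the GA repeat written as GAGAGA, the run TTTTTT, the core of the B box of tRNA genes with the letters GTTCGA, and the E-box CACGTG.
mdt-9: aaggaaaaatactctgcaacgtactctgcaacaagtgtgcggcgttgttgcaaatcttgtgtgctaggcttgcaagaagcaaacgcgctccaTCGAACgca
mdt-26: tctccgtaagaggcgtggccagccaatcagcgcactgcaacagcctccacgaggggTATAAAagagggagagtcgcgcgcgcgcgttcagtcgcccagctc
mdt-22: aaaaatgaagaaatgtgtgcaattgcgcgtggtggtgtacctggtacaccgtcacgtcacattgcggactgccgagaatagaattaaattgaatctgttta
rpoa-12: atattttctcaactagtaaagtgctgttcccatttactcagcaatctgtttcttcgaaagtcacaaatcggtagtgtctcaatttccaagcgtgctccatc
rpb-11: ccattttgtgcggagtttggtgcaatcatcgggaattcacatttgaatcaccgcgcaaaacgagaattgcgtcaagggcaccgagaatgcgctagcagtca

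The run at mdt-26 lies at chrII:5661080-5661180 on the plus strand of ce11 and ends 1 base before the annotated 5′ end of the gene. Its TATAAA is on the gene's strand and starts 45 bp before that end. The run at mdt-9 (chrIV:13386199-13386299, plus strand) holds GTTCGA on the opposite strand, read as TCGAAC on the gene's strand, from 89 bp before the 5′ end. The runs at mdt-22 (chrII:10301113-10301213, plus strand), rpoa-12 (chrV:14423395-14423495, minus strand) and rpb-11 (chrII:14059883-14059983, plus strand) hold none of the 5 words. The summit at taf-4 also has a TATAAA within 50 bp. TATAAA was thus found at 2 of the 6 called genes, against 3.57% of the 589 distinct IDR summits at coding genes. GTTCGA was found at 1 of 6, against 4.92%. The other words were found at none of the 6. Over the 589 summits the share with GAGAGA was 20.4%, that with TTTTTT was 17.1%, and that with CACGTG was 2.55%. The 5 words were chosen with earlier results of these data known, and the TATAAA count rests on 2 genes, so these contrasts are descriptions only. A match describes the letters near a summit and is not a site of binding. The DNA within 50 bp of the summit is 62.4% G and C at mdt-26 and 58.4% at taf-4, and 39.6% at rpoa-12, with a median of 50.5% over the 589 summits.

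**Figure D1:**
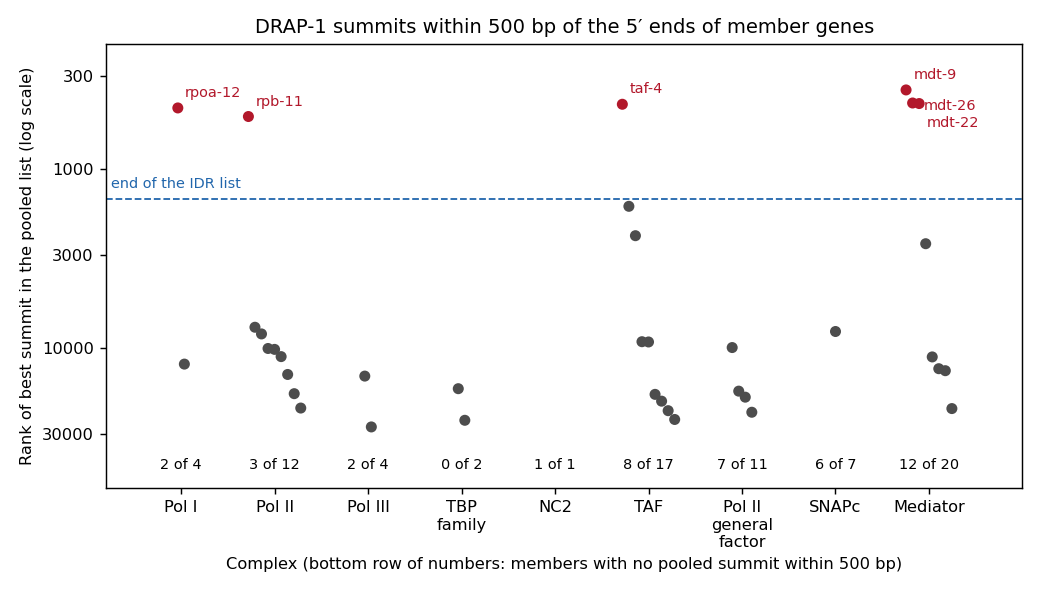
Rank of the best summit within 500 bp of each member's 5′ end in the pooled list (log axis, rank 1 highest, upward), by complex. Red points are the 6 genes with an IDR summit, the dashed line is rank 1468, and the bottom row counts members with no pooled summit. The red points lie between ranks 361 and 508, and the next member is at 1611.

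The 6 called genes lay close together in rank. All of them fell between pooled ranks 361 and 508 of 30000, with signals of 245.8 down to 210.5, and no other member came before rank 1611. The signals of the IDR list run from 126.7 to 2257.4, and all 6 peaks lie above its median of 174.1. In the higher-signal 734 peaks of that list, 6 of the 6 members kept their call, and 384 coding genes had one. Among coding genes with a candidate, 12.0% were called, and among members with a candidate 16.2% (6 of 37).

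Of the Mediator genes, mdt-9 had the highest rank of all members. MED9 belongs to the middle module of Mediator. The peak (chrIV:13386182-13386338, signal 245.8) has its summit 131 bp upstream of the 5′ end, and ranked 577, 412 and 313 in replicates 2, 3 and 4. The replicate summits lay at −133 ± 11.7 bp (mean ± SD, n = 3). The gene models place another coding gene, Y62E10A.23, over the 5′ part of mdt-9 on the same strand, and its 5′ end is nearer to the summit, at 75 bp. RefSeq gives Y62E10A.23 the product Mediator complex subunit 9 and gives mdt-9 the product guanine nucleotide exchange factor MSS4. The opposite-strand gene Y62E10A.20, for a Tim44-like protein, starts 158 bp from the summit. The peak is therefore shared by 3 gene starts, and the name that put mdt-9 among the members and its annotated product differ.

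At mdt-26 there were 2 IDR peaks. The gene encodes a protein with a TFIIS N-terminal domain, and MED26 in mammals links Mediator to elongation factors. The peak at its start (chrII:5661083-5661283, signal 228.4) has its summit 3 bp inside the gene, in its exon, and ranked 427 in the pooled list and 347, 365 and 569 in the replicates. The replicate summits lay at −19, −21 and 36 bp, so they scatter around the 5′ end (−1.33 ± 32.3 bp, n = 3). A higher peak (chrII:5661638-5662148, signal 405.1, pooled rank 135) has its summit 732 bp inside, in an intron of mdt-26, and ranked 91, 145 and 218 in the replicates. It was the higher of the pair in every replicate. The opposite-strand gene ift-43, for an intraflagellar transport protein, starts 398 bp from the summit of the first peak.

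The peak at mdt-22 (chrII:10300951-10301374, signal 227.9) ranked 430 in the pooled list and 461, 600 and 760 in the replicates. MED22 is a subunit of the Mediator head. The summit is 53 bp upstream of the 5′ end, with replicate summits at −72.7 ± 14.6 bp (n = 3). The whole of mdt-22 lies inside clpp-1, a mitochondrial Clp protease gene on the other strand, and the summit falls in an intron of clpp-1.

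The peak at taf-4 (chrI:382312-382735, signal 226.7) lies between genes and ranked 434 in the pooled list and 788, 341 and 558 in the replicates. TAF-4 is a scaffold subunit of TFIID and is required for much of the early embryonic transcription of the worm. The summit is 302 bp upstream of the 5′ end, the farthest of the 6, and the replicate summits lay at −283 ± 20.6 bp (n = 3).

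The peak at rpoa-12 (chrV:14423233-14423656, signal 221.6) ranked 455 in the pooled list, and 292 and 247 in replicates 3 and 4. RPOA-12 is a small subunit of RNA polymerase I, which transcribes the ribosomal RNA genes. In replicate 2 the summit was present at −166 bp but ranked 3261. The gene was thus among the 1468 highest regions in replicates 3 and 4 alone. The gene lies 480 bp downstream of rrsr-1, a ribosome biogenesis gene, on the same strand, and the proteasome gene pas-1 follows it on that strand.

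The peak at rpb-11 (chrII:14059721-14060144, signal 210.5) ranked 508 in the pooled list and 776, 353 and 757 in the replicates. RPB11 forms, with RPB3, the pair from which RNA polymerase II is assembled. Its summit is 152 bp upstream of the 5′ end, with replicate summits at −137 ± 14.5 bp (n = 3). W01G7.4, annotated as a putative nuclear localization protein of RNA polymerase II, follows rpb-11 on the same strand.

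The replicate ranks of the 6 genes overlap, so their order in the pooled list is not larger than the spread between replicates. A replicate summit lay within 100 bp of the pooled summit in all 3 replicates at 6 of 6 called members, and at 682 of the 748 called coding genes (91.2%). Of the 6, 5 were among the 1468 highest regions of every replicate, rpoa-12 being the exception. That is 6.41% of the members, against 359 of the coding genes (1.80%). In replicates 2, 3 and 4 taken alone, 5, 6 and 6 members had a summit among the 1468 highest (7.26% ± 0.74, SD, n = 3), against 682, 678 and 695 coding genes (3.43% ± 0.0445). The member share was above the coding share in 3 of 3 replicates. These replicates share controls and gene models, and the pooled list was made from the same reads.

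**Figure D2:**
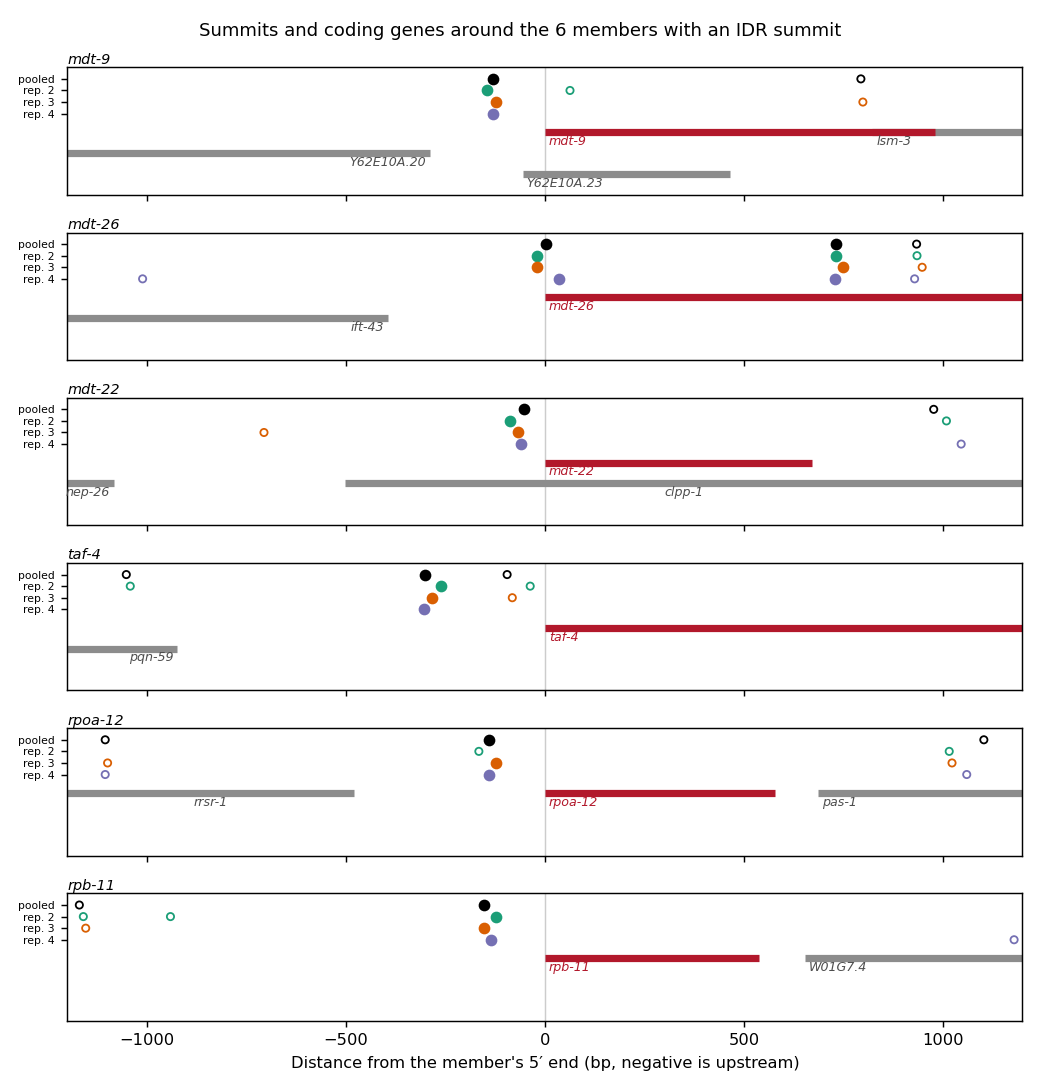
Summits of the pooled list and of replicates 2, 3 and 4 around the 5′ ends of the 6 called members (x axis, distance in bp along the gene's strand). Filled points rank within the 1468 highest of their list and open points below, red bars are the member and grey bars other coding genes (the upper row of bars runs with the member's strand, the lower row against it, and Y62E10A.23, which runs with it, is drawn at the bottom). The 4 lists place a summit within 100 bp of the same position at each gene, and mdt-26 has a further set at 732 bp in the pooled list.

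Of the 6 summits, 5 lay before the 5′ end, and the median of all 6 was −136 bp. Over the 748 called coding genes the median was −199 bp and 87.6% lay upstream. The 31 members with a candidate that was not called had a median offset of −87 bp, 58.1% of them upstream. The coding genes of that kind had −28 bp and 53.1%, so both sets were spread around the 5′ end.

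Among the members that were not called, taf-5, taf-10 and mdt-1.2 came nearest to the IDR list. The best summit at taf-5, another core TFIID subunit, ranked 1611 in the pooled list (signal 121.2) and 2976, 1814 and 4009 in the replicates. It lies 106 bp inside taf-5 and is nearer to the 5′ end of F30F8.5. That of taf-10, a TAF with a histone fold, ranked 2350 (signal 102.8) and 2752, 2112 and 17824. The replicate 2 and 3 summits of taf-10 lay at −212 and −226 bp, near the pooled one at −217 bp, but that of replicate 4 lay at 328 bp, so the pooled summit did not recur there. For mdt-1.2, a worm MED1, the ranks were 2605 (signal 98.3) and 3344, 3246 and 16100, so a summit recurred in all 3 replicates and was low in replicate 4. The next members, rpb-8 and snpc-3.4, followed at 7622 and 7992, with signals of 64.7 and 63.3. The member just inside the IDR list is thus rpb-11 at rank 508, and the member just outside is taf-5, whose signal of 121.2 is close to the lowest of the list, 126.7.

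**Figure D3:**
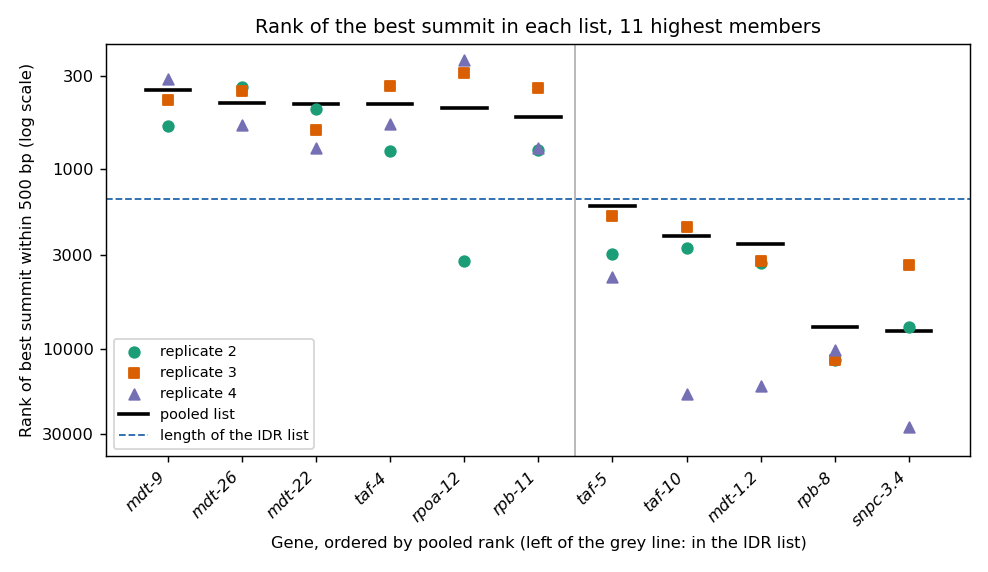
Rank of the best summit within 500 bp of the 5′ end (log axis, rank 1 highest, upward) in replicates 2, 3 and 4 and in the pooled list, for the 6 called members and the next 5 (the best summit of a replicate can lie elsewhere in the window than the pooled one). Left of the grey line all points but rpoa-12 in replicate 2, at 3261, lie above the dashed line at 1468, and right of it all points lie below.

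Candidates of any rank were found at 37 of the 78 members (47.4%), against 31.3% of coding genes. The replicate lists taken alone gave 37, 36 and 38 members (47.4% ± 1.28, SD, n = 3), against 31.8% ± 0.467 of coding genes. The median best rank over the 37 was 11161, against 11289 over the coding genes with a candidate. Of the 31 uncalled members with a candidate, 3 had it recur in all 3 replicates (9.68%), 15 in 2 (48.4%), 9 in 1 and 4 in none (12.9%). Of uncalled coding genes with a candidate, 15.7% had it in all 3, 34.5% in 2 and 10.5% in none. Over all 37 members the pooled summit recurred in all 3 replicates at 9 (24.3%), against 24.8% of coding genes with a candidate. At 17 of the 78 members no list held a summit, against 9136 of the 19973 coding genes.

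The polymerase subunits were the class with the highest share of candidates, 13 of 20 genes (65.0%), against 31.3% of coding genes. Of the 20 genes 2 were called (10%), against 3.75% of coding genes. The called share of the candidates was 15.4%, near the 12.0% over coding genes. The replicate lists gave 14, 13 and 12 of the 20. For RNA polymerase II the counts were 9 candidates and 1 call among 12 genes. After rpb-11 came rpb-8, a subunit common to the 3 polymerases, whose summit 24 bp upstream ranked 7622 in the pooled list. It recurred in replicate 4 alone, at −18 bp and rank 10243, and the highest summits in replicates 2 and 3 lay at −131 and −223 bp. The largest subunit, ama-1, whose C-terminal repeats are phosphorylated during transcription, had a summit at −233 bp that ranked 17899 (signal 44.2). It recurred in no replicate: the highest replicate summit within 500 bp was at −96 bp in replicate 2, at rank 13972, and replicates 3 and 4 had none. RNA polymerase I had 2 candidates and 1 call among 4 genes, rpoa-49 being the other candidate at rank 12240. RNA polymerase III had 2 candidates and no call among 4 genes, too few to set against a coding share of 3.75%. Its higher one, at rpc-25, ranked 14280 and lay 494 bp inside the gene, and it recurred at 432 bp in replicate 3 and at 580 bp in replicate 4, and not in replicate 2.

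**Figure D4:**
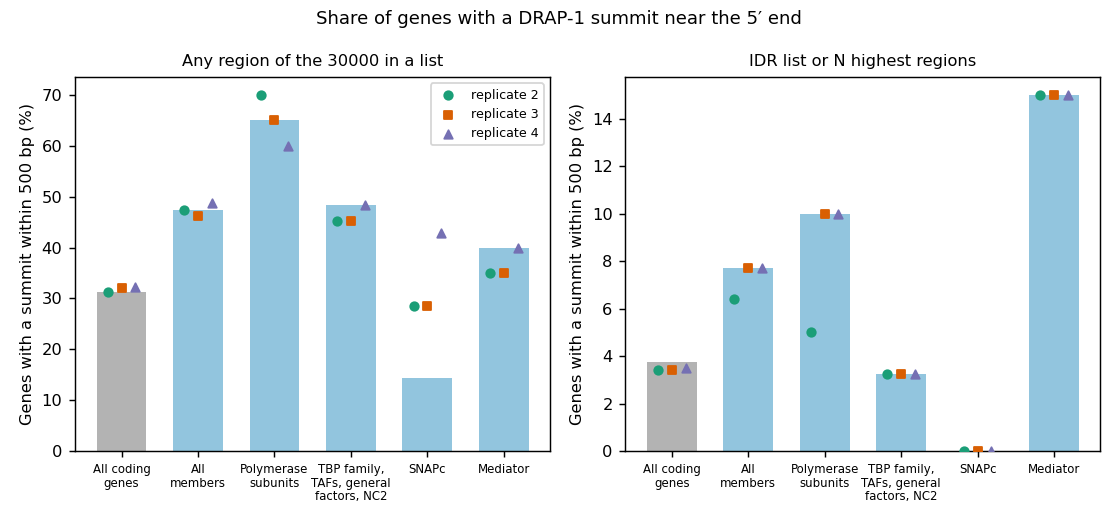
Share of genes with a summit within 500 bp of the 5′ end (%), for all coding genes (grey bar) and for members and their classes (blue bars). The left plot counts any region of the pooled list, and the right plot IDR summits, and points give replicates 2, 3 and 4 (right plot, their 1468 highest regions). Polymerase subunits reach 65.0% on the left, and Mediator 15.0% on the right, where SNAPc is at 0.

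The genes for TBP, its relative TLF-1, TFIIB and both NC2 subunits were not called. Only 3.75% of coding genes were called, so the lack of a call at so few genes does not set them apart. The summit nearest in rank to tbp-1, which encodes TBP itself, lay 281 bp inside the gene and ranked 16788 (signal 45.8), with ranks of 24487 and 17818 in replicates 3 and 4 and none in replicate 2. For tlf-1, the TBP-like factor required in the early embryo, the summit was 303 bp inside and ranked 25201 (signal 36.0), with none in replicate 3 within 500 bp. For ttb-1, which encodes TFIIB, it was at −414 bp and ranked 22726 (signal 38.4), and it recurred in replicate 2 alone, at rank 12234. An IDR peak lay farther upstream of ttb-1, at −1420 bp (chrV:155187-155610, signal 146.6, pooled rank 1071), with ttb-1 as the nearest gene start, and ranked 816, 2627 and 1049 in the replicates. The TFIIA small subunit gene gtf-2A2 had a summit at rank 18721 in the pooled list and none in any replicate. The highest of the general factor genes was gtf-2F1, for TFIIF, at rank 9895 (signal 58.1), 19355 and 6108 in replicates 2 and 4, and none in replicate 3. The RNA polymerase II general factors had 4 candidates among 11 genes (36.4%, near the 31.3% of coding genes) and no call. Of the TFIIH genes among them, gtf-2H3 ranked 17326, and of the replicates only replicate 2 had a summit within 500 bp.

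At drap-1 itself no list held a summit within 1500 bp. The nearest pooled summit was 25548 bp away. The locus lay in a stretch of 51705 bp with no pooled summit, which holds the 5′ ends of 16 coding genes. The lack of a summit was therefore not particular to drap-1. Its partner in NC2, found by its RefSeq product Protein Dr1 under the name dro-1, had no pooled summit within 500 bp, and weak ones at 478 bp in replicates 3 and 4 that ranked 29766 and 11661. The gene nud-1 ends 76 bp upstream of dro-1 on the same strand.

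Over the TBP family, TAFs, RNA polymerase II general factors and drap-1 together, 15 of 31 genes had a candidate (48.4%) and 1 was called (3.23%), a share near that of all coding genes. The TAFs had 9 candidates (52.9%) and 1 call (5.88%) among 17, against 31.3% and 3.75% of coding genes. Where the worm has several genes for a TAF, none of them was called: taf-11.3 ranked 9210 and taf-11.1 18059, and taf-6.2 ranked 19708 and taf-6.1 24937. At taf-12 and taf-7.1 replicate 2 alone had a summit, at ranks 5931 and 2947. No list held a summit at taf-1, the largest TFIID subunit, taf-9 or taf-13. SNAPc had 1 candidate among 7 genes (14.3%, against 31.3% of coding genes) and no call. With 7 genes and a coding share of 3.75%, no call does not set SNAPc apart. The candidate, at snpc-3.4, ranked 7992 in the pooled list. It recurred in replicates 2 and 3, at ranks 7614 and 3403, and the summit of replicate 4 lay elsewhere, at 70 bp and rank 27558. The replicate lists had summits at 2, 2 and 3 of the SNAPc genes.

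Mediator had 8 candidates among 20 genes (40%, against 31.3% of coding genes) and 3 calls (15.0%, against 3.75%). Thus 3 of its 8 candidates were called (37.5%, against 12.0% over coding genes). The same 3 genes were among the 1468 highest regions of every replicate. Outside them the Mediator genes were weak: after mdt-1.2 the next was mdt-31 at rank 11161. The gene mdt-15, whose product controls fatty acid metabolism genes in the worm, had no pooled candidate, and weak summits in replicates 3 and 4 ranked 17861 and 23950. At 7 of the 20 no list held a summit, mdt-4, mdt-10 and mdt-17 among them, against 9136 of the 19973 coding genes. Of the 3 called genes, mdt-9 shares its peak with 2 other gene starts and has the RefSeq product MSS4, which is not a Mediator subunit. The summit at the start of mdt-26 also lies 398 bp from the start of ift-43. With 3 genes of 20, the Mediator share rests on few peaks.

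Other genes of the same complexes, and some that act with them, carry names that the rule does not catch. Of 25 such names, 23 were found in the gene models. Of these, 12 had a candidate (52.2%, against 31.3% of coding genes) and 3 were called (13.0%, against 3.75%): pqn-51, cdk-7 and btf-1. Not every listed name is that of a subunit of these complexes. The gene tfbm-1 is annotated as a mitochondrial dimethyladenosine transferase. The products of spt-4 and spt-5 are annotated as elongation factors, that of rpap-2 as a putative phosphatase and that of rpap-3 as a polymerase-associated protein. The called gene btf-1 encodes the Mot1 homologue, which acts on TBP. The list was chosen with earlier results of these data known.

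BTF-1 is the worm BTAF1, the Mot1 homologue that removes TBP from DNA. Its peak (chrII:13199685-13200108, signal 146.3) had its summit at −268 bp and ranked 1076 in the pooled list and 584 and 1298 in replicates 2 and 3, with no summit in replicate 4. The gene lec-1 ends 452 bp before the 5′ end of btf-1 on the same strand. PQN-51 is the homologue of the large TFIIA subunit, although RefSeq names it only by its prion-like domain. Its peak (chrV:5049424-5049847, signal 199.8) had its summit 29 bp inside the gene and ranked 562, with 473, 388 and 3657 in the replicates. A short coding model, K11D12.14, starts nearer to that summit. CDK-7 is the kinase of TFIIH that phosphorylates the C-terminal repeats of RNA polymerase II. Its summit lay 21 bp inside the gene and ranked 622 (signal 189.2), with 578, 648 and 667 in the replicates, the narrowest range of the called genes named here. The DNA at the peaks of pqn-51 and btf-1 is shown for comparison with the runs above, on the gene's strand, with matches in capitals as before.
pqn-51: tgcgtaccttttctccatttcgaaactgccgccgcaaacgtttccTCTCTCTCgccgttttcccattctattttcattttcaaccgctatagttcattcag
btf-1: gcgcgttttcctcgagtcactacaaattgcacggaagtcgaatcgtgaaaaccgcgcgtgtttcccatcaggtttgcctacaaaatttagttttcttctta

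The run of pqn-51 (chrV:5049506-5049606, plus strand) holds 2 overlapping matches to GAGAGA on the opposite strand and no TATAAA. The run of btf-1 (chrII:13199847-13199947, plus strand) holds none of the 5 words. Of the genes without a call, rpac-19, a subunit shared by RNA polymerases I and III, was the highest at rank 1900 (signal 112.8), with 1571, 3914 and 2095 in the replicates. The Mediator kinase module gave cic-1, cyclin C, at 3933 and cdk-8 at 9829. The MED1 gene sop-3 ranked 1088 in replicate 4 and 11292 in replicate 2, with no candidate in replicate 3 or in the pooled list. The gene brf-1, for the TFIIIB subunit that brings RNA polymerase III to its genes, had no summit in any list.

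Many of the members lie just behind another gene on the same strand, an arrangement that in the worm includes operons. A same-strand coding neighbour ended at most 500 bp upstream of 28 of the 78 (35.9%), against 18.1% of coding genes. Of these 28, 9 had a candidate (32.1%) and 1, rpoa-12, was called (3.57%). Of the other 50 members, 28 had a candidate (56.0%) and 5 were called (10%). Over coding genes the shares with a candidate were 29.0% behind such a neighbour and 31.8% elsewhere, and the shares called were 2.24% and 4.08%. Among polymerase subunits 8 of 20 lie behind such a neighbour, among Mediator genes 10 of 20, and among SNAPc genes none of 7. On the other side, a same-strand gene began at most 500 bp downstream of 3 of the 6 called members and of 34 of all 78 (43.6%), against 18% of coding genes and 29.0% of called ones. Where a downstream gene is transcribed from the same start, the summit belongs to both genes.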

How the data were processed

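ChIP-seq of GFP-tagged DRAP-1 was made in 3 replicates of whole embryos. Per the sample descriptions the precipitation used an antibody against GFP, while the antibody label names drap-1. The authors' README texts say that a list of peaks and background was made for each replicate from its alignment and 2 control files, a pooled list from all 3 alignments, and an IDR-thresholded list from these, on ce11. The sources used here name no caller, version or IDR threshold. The deposited signal values, of unstated scale, served only to rank regions within a list. The deposited −log10 q-values were not used, and a constant p-value column was left out.

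Genes were those of Ensembl release 115 on WBcel235 (ce11 is another name for it), and no region ran past a chromosome end. All 78 members had a RefSeq product and 68 had the same coordinates in RefSeq. Summits within 500 bp of a 5′ end were assigned to every gene so reached, and lists were matched at 100 bp. N, the number of highest regions taken per replicate, was 1468, the length of the IDR list. Assignment was checked on simulated summits. Python 3.11.15, pandas 2.3.3 and numpy 2.4.6 were used.

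With 1 group no test between groups was possible, so shares stand beside those of all coding genes, and spread is the SD over replicates, which shared controls. Named genes are every called member, the 5 highest uncalled members, the highest member of each complex, tbp-1, tlf-1, ttb-1, ama-1, drap-1 and the gene annotated as Dr1; further genes were named after their values were seen. The members, the list of other genes and the words were chosen with earlier results of these data known. Alternatives covered the window, transcript starts, nearest-gene assignment, small RNA peaks, the number of regions, leaving out each replicate, and, chosen after seeing the data, leaving out genes close behind a neighbour.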

Additional observations from a re-analysis of the deposited data

How the results depend on the processing

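The count of called members, 6, ranged from 5 to 9 of 78 over the alternatives run, and leaving out a replicate gave 5 to 6. Of the summary results, 66 values under an alternative were labelled the same as the reported one, 8 moved, and 0 reversed. The label was broad. It took in 25 members with a candidate at 250 bp and 47 at 1000 bp, against 37 at 500 bp. The number of polymerase genes, 2, was 1 to 2 when a replicate was left out, rpoa-12 being lost without replicate 3 and without replicate 4, and was 1 among genes with no same-strand neighbour close upstream. The number of TBP family, TAF and general factor genes, 1, was 0 at 250 bp, where taf-4 was lost, and 2 at 1000 bp, where taf-12 was added. The Mediator count, 3, was 5 at 1000 bp, with mdt-6 and mdt-8 added, and mdt-9 was lost when a peak went only to its nearest gene. The median offset, −136 bp, was −152 bp at 1000 bp. With the number of regions per replicate halved to 734, 2 members in place of 5 were found in every replicate. All coding genes moved too, from 2.12% called at 250 bp to 5.17% at 1000 bp. Without replicates 2, 3 and 4 in turn, 2.16%, 2.05% and 2.05% of coding genes were called, against 3.75% in the main setting. For the halved number of regions no coding share is given here. No paired analysis was possible because there is 1 group. The deposited IDR list and the pooled list do not change when a replicate is left out, since its reads remain in them. The called coding genes still fell from 748 to 432, 409 and 409, so these settings asked for more than an IDR summit. The gene rpoa-12 was lost only where replicate 2, in which it ranked 3261, was kept. These counts are therefore not the effect of a missing replicate alone. Depth is unknown, so a gene with no summit is one at which none was listed, which is not evidence that DRAP-1 was absent. Neighbouring genes closer than 500 bp share peaks.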

Other observations

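The drap-1 locus lay in a long stretch with no candidate at all. In the pooled list the summits on either side of drap-1 were 51705 bp apart on chromosome V, and 98 of the 29994 distances between neighbouring summits were that long or longer, with a median of 1524 bp. In replicates 2, 3 and 4 the stretch was 49533, 42142 and 46516 bp, and 73, 76 and 43 distances were as long. In the pooled list it holds the 5′ ends of 16 coding genes. At unc-119, which the transgene also carries, the pooled stretch was 10961 bp, and 1673 distances were as long. In replicates 2, 3 and 4 it was 7495, 27441 and 10675 bp, and 2850, 232 and 1571 distances were as long. The kind of control is not given in the sources used here, and whether the transgene or the control libraries bear on this stretch was not tested.

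Runs of TTTTTT on either strand lay within 50 bp of the summit at 17 of the 31 members with a candidate that was not called (54.8%), against 1317 of 5432 coding genes of that kind (24.2%). The median share of G and C there was 37.6% and 43.6%. Between 34.7% and 45.5% G and C the runs were at 9 of 14 members (64.3%) and at 28.7% of coding genes. They were at 6 of 11 polymerase genes, 8 of 14 of the TBP, TAF and general factor genes and 2 of 5 Mediator genes, and at none of the 6 called members. Of these 31 regions 3 recurred in all 3 replicates. This word was singled out after its counts were seen.

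At 3 uncalled members an IDR peak lay beyond the 500 bp window but within 1000 bp. These were at −935 bp of mdt-8 (pooled rank 633, nearest gene Y62F5A.12), at −937 bp of taf-12 (rank 993, taf-12 itself nearest) and at −948 bp of mdt-6 (rank 1454, in an exon of Y57E12AL.1). At mdt-18 an IDR peak of rank 1291 lay at the start of a shorter transcript, nearer to uri-1.

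A further 24 genes are tied to these complexes by their RefSeq product alone, a set added after seeing the data. Of them 6 had a candidate (25%, against 31.3% of coding genes) and 1 was called (4.17%, against 3.75%), Y62E10A.23, at the peak of mdt-9. The next were T05A8.8 (Mediator subunit 15) at rank 3249, gvd-1 (Mediator subunit 21) at 3800 and rgr-1 (Mediator subunit 14) at 4770. The TFIIIC gene tftc-5 had no pooled candidate.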
